A study of Mus musculus with 9 samples.

Results

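miR-467 is a mouse microRNA family with most of its hairpins in an intron of Sfmbt2, and its members were followed in epididymosomes, the small vesicles that epididymal cells shed into the lumen of the tubule. The members were taken by name, as every miRNA of the deposited table whose name starts with miR-467. This gave 7 of 358 names: miR-467a-5p, miR-467b-5p, miR-467c-5p, miR-467d-5p, miR-467e-5p, miR-467a-3p and miR-467d-3p. miR-467b-5p had the value of miR-467a-5p in all 9 libraries, and miR-467d-3p that of miR-467a-3p, so the reads did not separate these names and 5 distinct profiles remained.

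A miRNA is cut from a hairpin transcript, and either arm of the hairpin, named 5p or 3p, can become the mature strand that guides silencing proteins to mRNAs through the seed, bases 2 to 8. Most miR-467 hairpins stand in a rodent cluster, with the miR-466, miR-669 and miR-297 families, in the imprinted gene Sfmbt2, which encodes a Polycomb group protein and is known best for its role in the placenta. In the epididymis, spermatozoa leaving the testis pass from the caput through the corpus to the cauda, and vesicles of the lumen carry small RNAs that can pass to these cells.

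Epididymosomes of the caput, corpus and cauda of male Swiss mice aged 8 weeks were purified on an OptiPrep density gradient, and 3 small RNA libraries per segment were sequenced. The mice carried no stated genetic change and received no stated treatment. Each library held RNA pooled from several animals, so that a replicate was a pool, not a single mouse, and the p-values measure the spread between pools. The libraries held between 1548581 and 11306605 reads on miRNAs. Levels are in CPM, for which the reads of every library were scaled to an equal total, not divided by the length of the miRNA, so that a level is a share of the library and not an amount of RNA per vesicle. The epithelial marker miRNAs, 8 names of the miR-200 family with miR-141 and miR-429, were present in every library and summed to between 21061 and 84357 CPM.

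In the GENCODE annotation of GRCm38, Sfmbt2 lies on the plus strand of chromosome 2 from 10370510 to 10595253. There were 14 Mir467 hairpins within it, all on the same strand: 10 numbered copies of Mir467a and 1 hairpin each of Mir467b, Mir467c, Mir467d and Mir467e. They spanned 33.8 kb, from 10473931 to 10507714. Mir467c was the first, at 10473931 to 10474027, 103.4 kb from the start of the gene. Mir467b followed at 10481248 to 10481320, Mir467e at 10505721 to 10505807, and Mir467d was the last at 10507630 to 10507714. All of these hairpins were intronic. Together with 23 Mir466, 29 Mir669 and 5 Mir297 hairpins they stood in a single intron of 62472 bp, which was intron 10 of 22 of 1 annotated transcript of Sfmbt2 and intron 11 of 22 of another. miR-467a-5p, with the values of miR-467b-5p, could thus have come from any of the 10 Mir467a hairpins or from Mir467b. The 3 further hairpins of the family, Mir467f, Mir467g and Mir467h, lie on chromosomes 11, 5 and 9, and no miRNA of these names was among the 358.

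**Figure D1:**
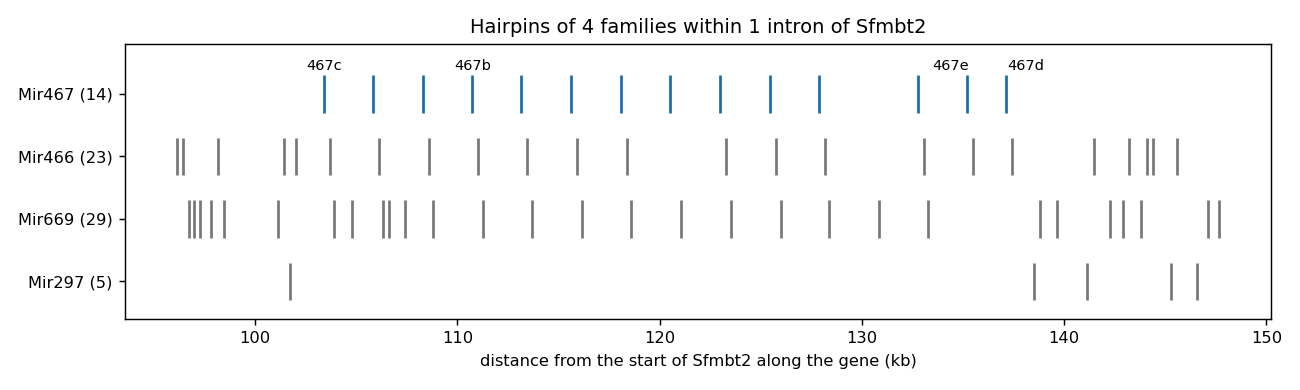
Positions of the miRNA hairpins of 4 families within Sfmbt2, as distance in kb from the start of the gene, from the GENCODE annotation of GRCm38. Each bar is 1 hairpin, and the 14 Mir467 hairpins (top row) run from 103.4 to 137.1 kb, spaced among those of Mir466 and Mir669.

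A window of 300 bases around a RefSeq start of the host gene, which lies upstream of the GENCODE start, is shown because 14 of the 17 hairpins lie within this gene. It stands in GRCm38.p6 at chr2:10370201-10370500 on the plus strand, and capitals mark the GC box GGGCGG.

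Sfmbt2: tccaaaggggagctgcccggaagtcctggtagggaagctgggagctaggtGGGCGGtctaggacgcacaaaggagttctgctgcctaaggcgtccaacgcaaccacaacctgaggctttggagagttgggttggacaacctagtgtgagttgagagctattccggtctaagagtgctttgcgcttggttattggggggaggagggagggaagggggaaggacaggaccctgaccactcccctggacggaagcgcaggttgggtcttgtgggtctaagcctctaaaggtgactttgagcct

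The GC box (GGGCGG, or CCGCCC on the other strand) was found 1 time in this window and occurs in 35.7% of 32851 RefSeq windows of this length. The letters of a TATA box (TATAAA), present in 13.6% of windows, and those of an androgen receptor half-site (AGAACA), present in 19.0%, were searched on both strands and were not in it. A second RefSeq start has its window at chr2:10372186-10372485, with 4 GC boxes and neither of the other motifs. These matches describe the letters of the window alone, since Sfmbt2 transcription was not measured in these libraries.

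miR-467a-5p was the most abundant member in each segment. Its 3 caput libraries held 79.8, 40.1 and 100.4 CPM, its corpus libraries 41.8, 42.3 and 25.2 CPM, and its cauda libraries 16.0, 16.0 and 15.4 CPM. The means of these segments were 73.4 ± 30.6, 36.4 ± 9.75 and 15.8 ± 0.332 CPM (SD, n = 3). Every cauda library lay below every library of the other segments, whereas caput replicate 2 lay below a pair of corpus libraries. By mean level it was number 136 of the 358 miRNAs for caput vesicles, 197 for corpus and 281 for cauda vesicles.

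miR-467d-5p held 36.1, 17.8 and 49.7 CPM in the caput libraries, 11.1, 19.2 and 9.69 CPM in the corpus libraries and 6.50, 5.49 and 7.46 CPM in the cauda libraries. The segment means were 34.5 ± 16.0, 13.3 ± 5.12 and 6.48 ± 0.984 CPM (SD, n = 3). The cauda libraries were again the lowest of all, and corpus replicate 2 exceeded caput replicate 2.

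miR-467e-5p held 25.7, 10.2 and 43.3 CPM in the caput libraries, 14.2, 12.5 and 12.9 CPM in the corpus libraries and 9.99, 7.32 and 8.65 CPM in the cauda libraries. The segment means were 26.4 ± 16.6, 13.2 ± 0.882 and 8.66 ± 1.34 CPM (SD, n = 3). Its lowest caput library, at 10.2 CPM, stood just above its highest cauda library, at 9.99 CPM, and below all 3 corpus libraries, so that the order of the segments for this member rested on the other caput libraries.

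miR-467c-5p held 21.9, 7.13 and 32.6 CPM in the caput libraries, 8.40, 10.2 and 3.23 CPM in the corpus libraries and 2.00, 4.58 and 5.43 CPM in the cauda libraries. The segment means were 20.6 ± 12.8, 7.27 ± 3.61 and 4.001 ± 1.79 CPM (SD, n = 3). Few reads stood behind the lower of these values: 4, 10 and 32 reads in the cauda libraries and 5 reads in corpus replicate 3. The exact Poisson 95% interval of the first cauda library, which covers counting error only, ran from 0.545 to 5.12 CPM.

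miR-467a-3p, the other arm of the Mir467a hairpins, held 9.02, 8.34 and 26.9 CPM in the caput libraries, 9.05, 4.70 and 4.52 CPM in the corpus libraries and 2.50, 5.04 and 14.4 CPM in the cauda libraries. The segment means were 14.7 ± 10.5, 6.09 ± 2.56 and 7.32 ± 6.28 CPM (SD, n = 3). This was the member without a common order of segments, since cauda replicate 3, with 85 reads, lay above the lower 2 caput libraries and above all corpus libraries. The other cauda libraries had 5 and 11 reads.

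Adding the 5 distinct profiles, the caput libraries held 172.6, 83.5 and 252.9 CPM, the corpus libraries 84.6, 88.9 and 55.5 CPM, and the cauda libraries 37.0, 38.5 and 51.4 CPM. Caput replicate 2 was the lowest and caput replicate 3 the highest caput library for each of the 5 profiles. Caput replicate 2 was also the library with the largest share of miR-10a-5p and miR-10b-5p, 71.3% of its reads, against 63.2% in caput replicate 1 and 50.5% in caput replicate 3. This share was 50.3% to 53.2% for corpus and 33.2% to 34.5% for cauda libraries. With miR-143-3p added, the share was 59.3% to 76.3% for caput, 60.1% to 62.4% for corpus and 63.2% to 68.4% for cauda libraries. A scaling less tied to these abundant miRNAs was therefore also used. TMM normalization sets libraries level on the bulk of their miRNAs in place of their total. With it the caput libraries held 105.9, 84.0 and 86.3 scaled CPM of miR-467a-5p, a mean of 92.0 ± 12.0 (SD, n = 3), against 32.7 ± 9.05 for corpus and 13.3 ± 1.40 for cauda libraries. The spread between caput libraries was thus narrower on this scale, and the order of the segments was kept.

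**Figure D2:**
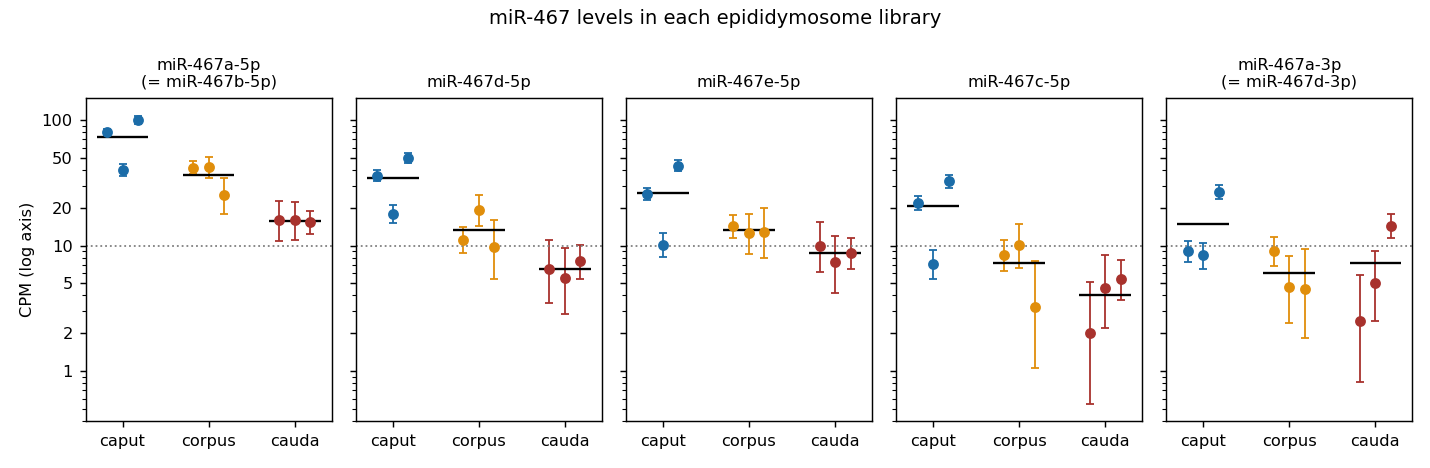
Level of each distinct miR-467 profile in each library, in CPM on a log axis, replicates 1 to 3 from left to right within a segment. Bars are exact Poisson 95% intervals of the reads, black lines are segment means and the dotted line marks 10 CPM. The cauda libraries of miR-467a-5p lie close together at 15.4 to 16.0 CPM, while miR-467a-3p spans 2.50 to 14.4 CPM in the cauda.

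A mean of 10 CPM, the level from which miRNAs were tested, was reached by all 5 profiles in caput libraries, by miR-467a-5p, miR-467d-5p and miR-467e-5p in corpus libraries, and in cauda libraries by miR-467a-5p. Each of the 358 miRNAs reaches this level in some segment. 4 of the 5 profiles therefore entered the comparison of cauda and caput through the caput alone, which favours a lower value in the cauda among them. Counts of called members describe them and do not stand as support for a direction.

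The first question was how the segment at the distal end, where mature spermatozoa are stored, differed from the segment that they enter first. Between cauda and caput, miR-467a-5p, miR-467d-5p, miR-467c-5p and miR-467e-5p fell. In bulk vesicle RNA, fewer vesicles that carry a miRNA, less of it per vesicle and a larger share of other miRNAs cannot be told apart. Of the 5 profiles 4 were differentially accumulated, that is, at least 2-fold changed on the log2(CPM + 1) scale with an adjusted p under 0.05 (limma, Benjamini-Hochberg adjustment over 349 miRNAs). All 4 were lower in the cauda, in a comparison where 10.3% of the miRNAs tested were called lower, 38.7% higher and 49% in either direction. The values of these 4 did not overlap between the segments, which held in the lower direction for 11.7% of the miRNAs tested. The median log2 fold change was -1.96 over the 5 profiles and 0.81 over all miRNAs tested.

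miR-467d-5p had the lowest log2 fold change of the members, -2.14 with a standard error of 0.47, which is 4.41-fold lower (limma with Benjamini-Hochberg adjustment, adjusted p = 0.00168). Only 7 of the 349 miRNAs had a lower log2 fold change. miR-467a-5p followed at -2.05 with a standard error of 0.45, which is 4.14-fold lower (same limma test, adjusted p = 0.00148). miR-467c-5p was 3.88-fold lower, at -1.96 with a standard error of 0.58 on the log2 scale (same limma test, adjusted p = 0.0105). These 3 were called in each of the 21 alternatives to the scaling, the pseudocount, the filter, the fit and the libraries.

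miR-467e-5p was 2.46-fold lower, at -1.30 with a standard error of 0.50 on the log2 scale (same limma test, adjusted p = 0.0370). It lost the call in 9 of the 21 alternatives, for example with limma-voom on the recovered reads (adjusted p = 0.0548) and the fit without caput replicate 3 (log2 fold change -0.85, adjusted p = 0.121). miR-467a-3p was not differentially accumulated. Its log2 fold change was -1.001 (95% interval -2.25 to 0.25; same limma test, adjusted p = 0.165). Without cauda replicate 3 it was -1.58 and passed, with an adjusted p of 0.0332, and with TMM normalization it was -1.60 and passed, with an adjusted p of 0.0181. The call of this arm was therefore decided by 1 library and by the scaling. Under TMM normalization all 5 profiles were called lower, beside 20.3% of the miRNAs tested.

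**Figure D3:**
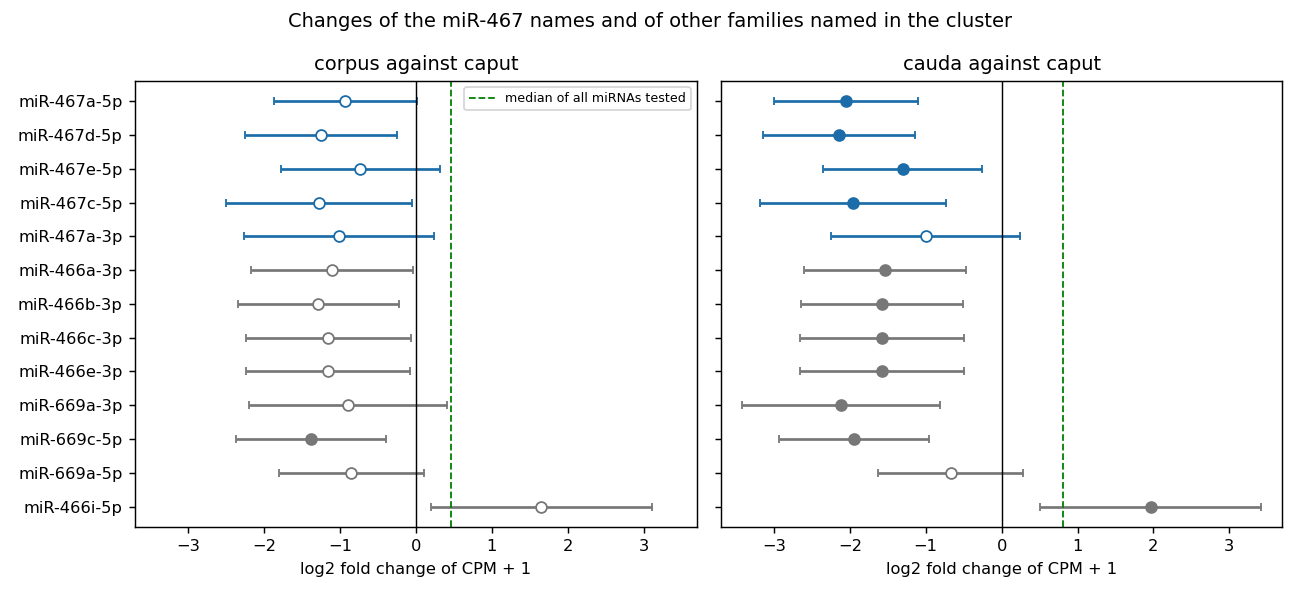
Log2 fold changes of log2(CPM + 1) with 95% intervals from limma, for the distinct miR-467 profiles (blue) and the distinct miR-466 and miR-669 profiles (grey), for corpus (left) and cauda (right) against caput. Filled points are differentially accumulated, and the dashed line is the median of all miRNAs tested, 0.47 on the left and 0.81 on the right. All 5 miR-467 points lie to the left of it on both sides.

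Between corpus and caput the same members were lower by mean, yet none passed. Their log2 fold changes were -1.27 for miR-467c-5p, -1.25 for miR-467d-5p, -1.01 for miR-467a-3p, -0.93 for miR-467a-5p and -0.73 for miR-467e-5p, against a median of 0.47 over the 321 miRNAs tested. The standard errors were between 0.45 and 0.59, and the lowest adjusted p, that of miR-467d-5p, was 0.0689 (limma, Benjamini-Hochberg). 2 of the 5 profiles, miR-467d-5p and miR-467c-5p, were under an unadjusted p of 0.05, as were 37.1% of all miRNAs tested, 8.41% in the lower direction. Of all miRNAs tested 3.43% were called lower and 22.4% in either direction. By limma-voom the number of members called was also 0.

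No member separated the corpus from the caput in CPM, where 5.61% of the miRNAs tested lay lower without overlap. For each of the 4 members of the 5p arm the overlap came from caput replicate 2 alone. Without this library 4 of the 5 profiles were differentially accumulated, with log2 fold changes of -1.31 for miR-467a-5p, -1.86 for miR-467c-5p, -1.65 for miR-467d-5p and -1.28 for miR-467e-5p. In that fit 8.62% of all miRNAs tested were called lower. With TMM normalization all 5 profiles were called, their median was -1.53 and their values did not overlap, beside 15.3% of all miRNAs called lower and 27.7% lower without overlap. With median-of-ratios size factors all 5 were also called, beside 14.3% of all miRNAs called lower. Whether the members differed between corpus and caput thus depended on how the libraries were scaled and on 1 caput library.

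Between cauda and corpus 3 profiles reached the level for testing, and each had its 3 cauda libraries below its 3 corpus libraries. Of all 342 miRNAs tested 16.1% were lower in this way. The log2 fold changes were -1.12 for miR-467a-5p (standard error 0.45), -0.89 for miR-467d-5p (standard error 0.47) and -0.57 for miR-467e-5p (standard error 0.50), against a median of 0.18. None was differentially accumulated: limma with Benjamini-Hochberg adjustment gave an adjusted p of 0.0891 for miR-467a-5p, 0.209 for miR-467d-5p and 0.462 for miR-467e-5p. 1 of the 3 was under an unadjusted p of 0.05, as were 32.5% of all miRNAs tested, 12% in the lower direction. By the adjusted test 4.97% of all miRNAs were called lower and 19% in either direction. miR-467a-5p passed with TMM normalization (log2 fold change -1.21, adjusted p = 0.0111), where 9.94% of all miRNAs were called lower. It also passed when the fit held the 6 libraries of the comparison alone (adjusted p = 0.0287). miR-467c-5p and miR-467a-3p had means under 10 CPM in both segments and were not tested with the filter at 10 CPM.

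Placed in order, the mean levels of the 4 members of the 5p arm were highest in caput and lowest in cauda vesicles. For miR-467a-5p, which reached 10 CPM in all 3 segments, the ends of this order differed beyond the spread in every alternative, and its neighbours did not pass in the fit of all 9 libraries at library size scaling. The other 3 were tested between the ends through their caput level, and the call of miR-467e-5p was lost in 9 of the 21 alternatives. The 3 comparisons share libraries, so their values for a member are not independent of each other.

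The next question was whether the members changed in proportion, which a ratio within a library can show without regard to scaling. The log2 ratio of miR-467d-5p to miR-467a-5p was -1.10 ± 0.0788, -1.44 ± 0.382 and -1.23 ± 0.231 for caput, corpus and cauda (SD, n = 3). Over the 280 divisions of the 9 libraries into segments this gave p = 0.329 (exact permutation test of the variation between segments; the smallest p it allows is 0.00357). The ratio of miR-467e-5p to miR-467a-5p was -1.58 ± 0.364, -1.39 ± 0.406 and -0.84 ± 0.216 in the same order, with p = 0.125 by the exact permutation test. Its cauda libraries, at -1.08 to -0.65, lay above the caput libraries, at -1.93 to -1.20.

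The ratio of the arms, miR-467a-5p to miR-467a-3p, was 2.39 ± 0.617, 2.52 ± 0.467 and 1.38 ± 1.19 for caput, corpus and cauda (SD, n = 3). The 3 cauda libraries were at 2.46, 1.58 and 0.10, the last being cauda replicate 3, and the exact permutation test gave p = 0.271. The ratio of miR-467d-5p to miR-467d-3p was 1.29 ± 0.573, 1.08 ± 0.818 and 0.14 ± 1.06, with p = 0.321 by the same exact permutation test. The 3p reads could not be divided between the Mir467a and Mir467d hairpins, so neither is the ratio of a single precursor. Adjusted over the 4 ratios, every p was 0.329 by the Benjamini-Hochberg procedure. A further ratio, miR-467c-5p to miR-467a-5p, was added after its values had been seen and had means of -1.95, -2.35 and -1.95 (exact permutation test, p = 0.564). A change in proportion was therefore not detected at this number of libraries.

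**Figure D4:**
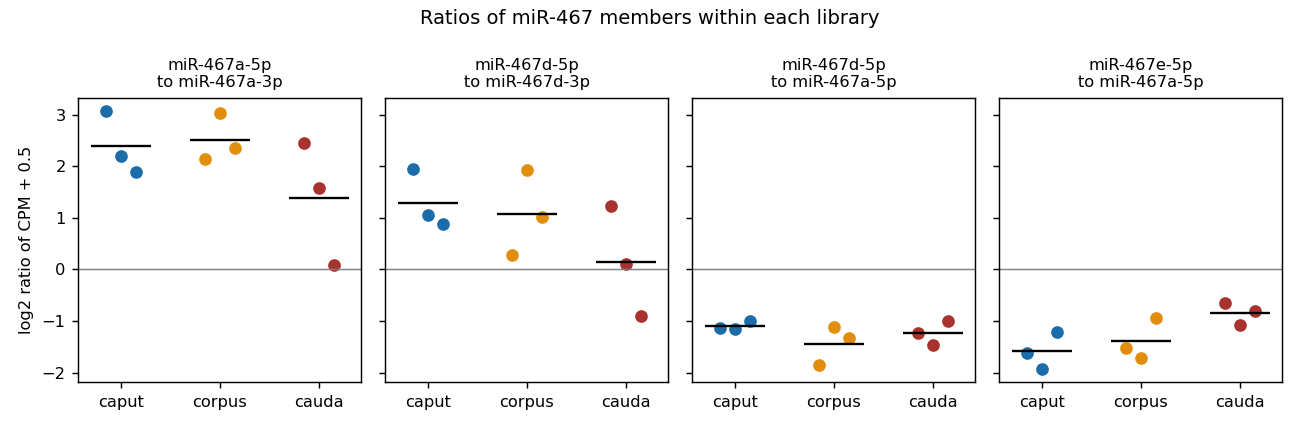
Log2 ratios of pairs of miR-467 members within each library (CPM + 0.5), replicates 1 to 3 from left to right within a segment. Lines are segment means. Both arm ratios are lowest in cauda replicate 3, at 0.10 and -0.91.

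The other families of the cluster gave 11 names: 6 of miR-466 and 5 of miR-669. None of miR-297 was among the 358. They held 8 distinct profiles, of which 6 had hairpins in the intron of Sfmbt2 under their name. miR-466b-3p, miR-466c-3p and miR-466e-3p had equal reads except in corpus replicate 3 (8, 11 and 11) and caput replicate 3 (175, 175 and 176). They were counted as separate profiles, although their reads were nearly the same. Between cauda and caput 5 of the 6 with such hairpins were called lower and 0 higher, with a median log2 fold change of -1.58. Of all miRNAs tested 10.3% were called lower. Those 5 had a mean under 10 CPM in the cauda and were tested through the caput alone, which favours a lower value in the cauda. Their count therefore does not stand as support for a direction. miR-669a-3p, the most abundant miR-669 name, was 4.33-fold lower (limma, Benjamini-Hochberg, adjusted p = 0.00956) and miR-669c-5p, with the lowest p of that family, 3.83-fold lower (adjusted p = 0.00295 by the same limma test). The values of miR-669a-3p overlapped, since cauda replicate 3, at 19.5 CPM, lay above caput replicate 2, at 17.2 CPM. Its call was kept in 20 of the 21 alternatives and lost without cauda replicate 1 (log2 fold change -1.51, adjusted p = 0.0567 by limma). miR-466b-3p, with the lowest p of the miR-466 names, was 2.98-fold lower (adjusted p = 0.0163 by the same limma test). miR-669a-5p was not called, at a log2 fold change of -0.67.

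miR-466i-5p, the most abundant miR-466 name, went the other way. Its caput libraries held 0.796, 6.77 and 20.2 CPM, its corpus libraries 11.8, 17.6 and 37.5 CPM and its cauda libraries 25.0, 21.1 and 29.7 CPM. It was 3.90-fold higher in cauda than caput (limma, Benjamini-Hochberg, adjusted p = 0.0259), beside 38.7% of all miRNAs tested. The call was lost in 6 of the 21 alternatives: with TMM normalization (log2 fold change 1.40, adjusted p = 0.118), median-of-ratios size factors (adjusted p = 0.132), a pseudocount of 10 (log2 fold change 0.99), and without caput replicate 1 (adjusted p = 0.174), caput replicate 2 (0.0697) or cauda replicate 3 (0.0625). Its only annotated hairpin lies on chromosome 13 and not in Sfmbt2. The remaining profile, miR-466a-3p, had no hairpin under its name with the letter in the annotation. A hairpin named Mir466, without a letter, stood in the same intron of Sfmbt2 at 10507918 to 10507990. The match by name did not assign it to miR-466a-3p, so that profile was left out of the 6. In the corpus against the caput 1 of the 8 profiles was called, miR-669c-5p (log2 fold change -1.38, adjusted p = 0.0401 by limma), beside 3.43% of all miRNAs called lower. That call was kept in 11 of the 20 alternatives that tested it.

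Across the 9 libraries the 4 distinct 5p members had Pearson correlations with each other of 0.854 to 0.968 on log2(CPM + 1), and of 0.576 to 0.756 with miR-467a-3p. These points share their library totals and fall into 3 segments, so that the values describe likeness only. The miRNAs most like the mean of the 5p members were miR-138-5p (r = 0.956), miR-3068-3p (r = 0.956), miR-669c-5p (r = 0.950), miR-744-5p (r = 0.949) and miR-182-5p (r = 0.942). Their means were higher in the caput than in the cauda, for instance 87.2 against 11.5 CPM for miR-138-5p. Those most like miR-467a-3p were let-7b-3p (r = 0.880), miR-296-5p (r = 0.874), miR-669a-3p with miR-669o-3p, which has the same values (r = 0.873), and miR-339-3p (r = 0.813). miR-669a-3p, like miR-467a-3p, was higher in cauda replicate 3 than in the other cauda libraries. Of these names, the 4 that resemble the 5p members and have a mature sequence in RefSeq (GRCm38.p6) are shown, with the seed in capitals. They are examples of miRNAs from hairpins outside the cluster that followed a like course over the libraries.

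miR-138-5p: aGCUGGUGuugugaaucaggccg
miR-3068-3p: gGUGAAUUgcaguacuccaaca
miR-744-5p: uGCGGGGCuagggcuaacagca
miR-182-5p: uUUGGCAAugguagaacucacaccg

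No seed is shared between any pair of the 4. miR-182-5p, a member of a sensory organ cluster, was present at a far higher level than miR-467, with a caput mean of 13075 CPM and a cauda mean of 3867 CPM.

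At library size scaling, marker miRNAs of other cells moved along the same axis, mostly in the opposite direction to miR-467. Of all miRNAs tested 38.7% were called higher in cauda than in caput vesicles, against which the following counts are to be read. At this scaling 135 were called higher and 36 lower, against 87 and 71 under TMM normalization, for which the lists are not given. Of the 24 names of a germ cell list (miR-34b, miR-34c, miR-449a and the X-linked testis miRNAs) 24 were called higher. Their sum was 437 to 1175 CPM in the caput, 1457 to 1608 CPM in the corpus and 2779 to 3790 CPM in the cauda. 1 of them, miR-470-3p, was at 0 in 1 caput library. The authors report miR-34c in the epididymal epithelium as well, at a higher level in the caput than in the cauda. The list is therefore not specific to germ cells. For miR-467e the authors report no detection in the epithelium of any segment, and among spermatozoa the highest level in the caput. By RT-qPCR of separate pools they report that miR-467a, miR-467d and miR-467e also differed between vesicles of the segments. They further report more of these miRNAs in caput spermatozoa after incubation with epididymosomes. All 5 red blood cell names were called higher, with sums of 223.4 to 848 CPM in the caput, 390 to 1106 CPM in the corpus and 3030 to 4365 CPM in the cauda, and none was at 0.

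All 5 striated muscle names were also called higher, with sums of 55.5 to 197 CPM in the caput, 121 to 167 CPM in the corpus and 1412 to 4166 CPM in the cauda. In this list miR-133a-5p was at 0 in 2 libraries and miR-208b-3p in 1. All 5 smooth muscle names were called higher, with sums of 50117 to 89001 CPM in the caput, 88427 to 121414 CPM in the corpus and 291696 to 354797 CPM in the cauda. Of 5 leukocyte names 3 were called higher, with sums of 231 to 530 CPM in the caput, 515 to 1149 CPM in the corpus and 392 to 1601 CPM in the cauda, the highest of these in cauda replicate 3. Of the 8 epithelial names 1 was called higher, with sums of 21061 to 31929 CPM in the caput, 72124 to 84357 CPM in the corpus and 44687 to 61155 CPM in the cauda. No name of these 6 lists was called lower, and the part of such RNA in the miR-467 values was not tested.

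**Figure D5:**
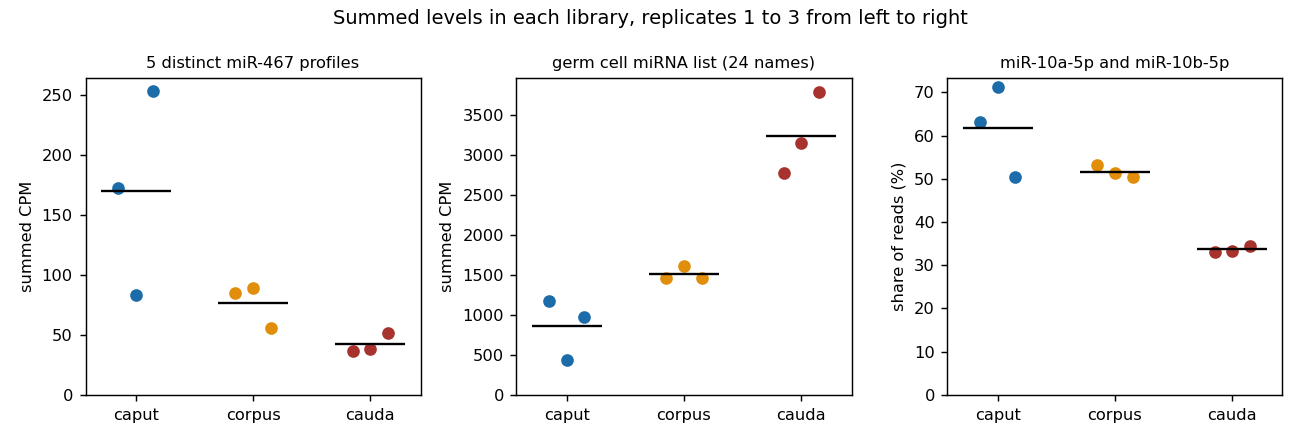
Sum of the 5 distinct miR-467 profiles (left), sum of the germ cell list (middle), both in CPM, and share of reads of miR-10a-5p and miR-10b-5p in percent (right), for each library, replicates 1 to 3 from left to right, with segment means as lines. The miR-467 sum lies at 37.0 to 51.4 CPM in the cauda, while the germ cell sum is highest there.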

How the data were processed

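Small RNA of caput, corpus and cauda epididymosomes from male Swiss mice was sequenced in 3 pooled libraries per segment. After a screen for contaminants the authors assigned reads to mature miRNAs with miRDeep2 and scaled them to library size. Their deposited values are CPM of 358 miRNAs. The submitters' processing notes name CASAVA 1.8.2, Bowtie 1.1.1 and limma, while the genome build and miRNA release are not given in the sources used here. The values under 200 CPM were all within 0.02 of whole multiples of the value of 1 read, from which totals of 1548581 to 11306605 reads were taken. At 10 CPM a miRNA had 15.5 to 113 reads. Intervals cover counting error only, since copies of a molecule made by amplification were not marked. All columns of the table were mapped to libraries by the segment and number in their names.

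Segments were compared on log2(CPM + 1), a scale that understates folds of low miRNAs, with limma 3.58 under R 4.3 (a trended eBayes fit of all 9 libraries on the segment). P-values were adjusted by Benjamini-Hochberg over the miRNAs that reached a mean of 10 CPM in either compared segment. A miRNA was called at an adjusted p under 0.05 and a fold of at least 2. Ratios used a pseudocount of 0.5 CPM and two-sided exact permutation tests. The scripts were first tested on simulated data. Hairpins were matched by name to the GENCODE annotation of GRCm38, and 7 of 17 names looked up had a mature RefSeq sequence. Tables and plots were made with Python 3.11, pandas 2.3 and matplotlib 3.10.

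Besides the members, other names were given by rule. In each other family of the cluster these were the highest mean and the lowest p between caput and cauda. Named too were the 5 miRNAs most correlated with the 5p mean and the 5 most correlated with miR-467a-3p. The most abundant miR-10a-5p, miR-10b-5p and miR-143-3p were the last of them. miR-669a-5p, miR-466a-3p, miR-466c-3p and miR-466e-3p were named after their values had been seen. The members, lists and tests were chosen with earlier results of these data known. Alternatives were other scalings (TMM, median-of-ratios, and library size without the 3 most abundant miRNAs), pseudocounts, filters, limma-voom on recovered reads, a replicate block, fits of the 6 compared libraries, identical names counted once, and each library left out in turn.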

Additional observations from a re-analysis of the deposited data

How the results depend on the processing

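No tested member reversed direction in any alternative. The fall of miR-467 members from caput to cauda involved 3 to 5 called profiles over the alternatives, against 4 as reported. Of all miRNAs tested, 7.8% to 20.3% were called lower there, against 10.3%. Between corpus and caput the number of members called was 5 with TMM normalization, 5 with median-of-ratios size factors and 3 with library size without the 3 most abundant miRNAs, against 0 as reported, and 0 to 4 with 1 library left out (4 without caput replicate 2). Of all miRNAs tested, 15.3%, 14.3% and 10.6% were called lower in these scalings, against 3.43%, and 8.62% without caput replicate 2. Between cauda and corpus it was 1 with TMM normalization, 2 with median-of-ratios size factors and 1 with the 6 libraries alone, against 0, and 0 to 1 with 1 library left out (1 without caput replicate 2 and 1 without caput replicate 3). TMM normalization moved the median log2 fold change of all miRNAs tested from 0.47 to -0.09 between corpus and caput, where 42 were then called higher and 49 lower against 61 and 11. Between cauda and caput it moved from 0.81 to 0.13, with 87 higher and 71 lower against 135 and 36. Between cauda and corpus it moved from 0.18 to 0.08. The median of the members lay below these medians on both scales.

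Of the 8 other profiles named for the cluster, 3 with nearly the same reads, 1 was called between corpus and caput. This number was 7 with TMM normalization, 6 with median-of-ratios size factors and 6 with library size without the 3 most abundant miRNAs. Of all miRNAs 15.3%, 14.3% and 10.6% were then called lower, against 3.43%. It was 0 with a pseudocount of 10, a filter at 20 CPM, limma-voom or the 6 libraries alone. With 1 library left out it was 0 to 5 (5 without caput replicate 2). Between cauda and caput it was 7, of which 6 were lower and 1, miR-466i-5p, higher. Each of these 7 reached a mean of 10 CPM only in the segment where it was higher, which favours the direction called. Under TMM normalization or median-of-ratios scaling 7 were called too, all lower, with miR-466i-5p lost and miR-669a-5p gained. It was 1, lower, with a pseudocount of 10, 2 with a filter at 20 CPM, which left 3 of these profiles to test, and 2 to 7 with 1 library left out (2 without caput replicate 1, 3 without caput replicate 3 and 3 without cauda replicate 2). Between cauda and corpus it was 0, and 0 to 1 with 1 library left out (1 without cauda replicate 3). The causes were not tested.

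Same-numbered libraries of different segments did not deviate together throughout: the correlation of their deviations from the segment means was -0.21 to 0.41, over 0.1 in 6 of 9 pairs, although 8 of 9 libraries correlated best with one of their own number. With the replicate block the members called numbered 0, 0 and 4, as without it, and 2 of the other profiles were called between corpus and caput. Over all miRNAs the calls were 83, 73 and 180, against 72, 65 and 171 (corpus against caput, cauda against corpus, cauda against caput). The adjusted p of every ratio stayed over 0.05 in each alternative. The planned edgeR test was not run, and limma-voom was the test used on the recovered reads. With 1 library left out the calls over all miRNAs fell by over 1.5 times between corpus and caput without corpus replicate 1 (46), and between cauda and corpus without corpus replicate 1 (41), corpus replicate 2 (32), cauda replicate 1 (38) or cauda replicate 2 (39). Depth limits miR-467c-5p and miR-467a-3p most, with as few as 4 and 5 reads in a cauda library.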
